A study of Mus musculus with 6 samples.

Results

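Expression of 40 genes of glycolysis and of the response to low oxygen was compared between the epithelium of wild-type and Emx2 KO gonadal primordia of mouse fetuses at E10.5. The genes were taken by symbol from a fixed list, which was chosen with earlier results of these data known. Probe sets that the array's annotation assigns to exactly 1 of these symbols numbered 83 of 45101 and covered 37 of the 40 genes, and 65 of them, for 36 genes, were bright enough to be tested. Emx2 is a homeobox gene needed for the urogenital system. The wild-type (+/+) and the KO (−/−) group each had 3 pools, 1 array per pool, and a pool held epithelium of 3 fetuses, cut by laser from hematoxylin-stained frozen sections with GATA4 staining as a guide. The sources used here do not give what the KO allele removes, the strain or the sex of the fetuses, and a p-value here reflects only how pools vary, because litters are not named in the labels.

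Glycolysis splits glucose to pyruvate in the cytosol. Glucose enters through the carriers Slc2a1 and Slc2a3, hexokinases trap it, phosphofructokinase commits it to the pathway, and the lower enzymes yield ATP and pyruvate. Lactate dehydrogenase then turns pyruvate to lactate, which leaves through Slc16a carriers, or pyruvate dehydrogenase, which Pdk kinases switch off, passes it to the mitochondrion. When oxygen is short, the prolyl hydroxylases Egln1 and Egln3 no longer mark the HIF alpha subunits Hif1a and Epas1 for Vhl, and the stabilised subunits pair with Arnt at the core motif of hypoxia response elements near many of these genes. Early embryonic tissues are known to rely on glycolysis to a large degree.

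The array values are linear intensities. They were scaled to a common level and are called scaled intensity below, and fold changes are on the log2 scale, KO minus wild-type. A gene was read by its brightest tested probe set unless stated otherwise, and it was said to rise or fall where limma's adjusted p over all tested probe sets was under 0.05. A probe set's level cannot be set against that of another gene's, since probe sets differ in how brightly they bind.

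Of the 36 tested genes, 1 rose (Bnip3), 1 fell (Ldhb) and 34 did not pass. This is 5.56% of them, against 5.41% of all 12315 genes read the same way (666 called, 361 higher and 305 lower), so the members' share was that of the background; 2.93% of all genes were called higher and 2.48% lower, and 4.68% of all tested probe sets were called. Their median log2 fold change was −0.04, against −0.01 over all tested genes, and the range ran from −0.56 to 0.77. For 33 of the 36 genes the 95% confidence interval of the log2 fold change lay within a 2-fold change in either direction. The exceptions were Slc16a3, Hk1 and Car9. An unadjusted p under 0.05 was reached by 8 of the 36, and by 2238 of all 12315 tested genes. The 3 wild-type and 3 KO values did not overlap in 10 genes, 4 with KO above and 6 with KO below. Of all tested genes 23.2% did not overlap, 11.2% with KO above and 12.1% with KO below.

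**Figure D1:**
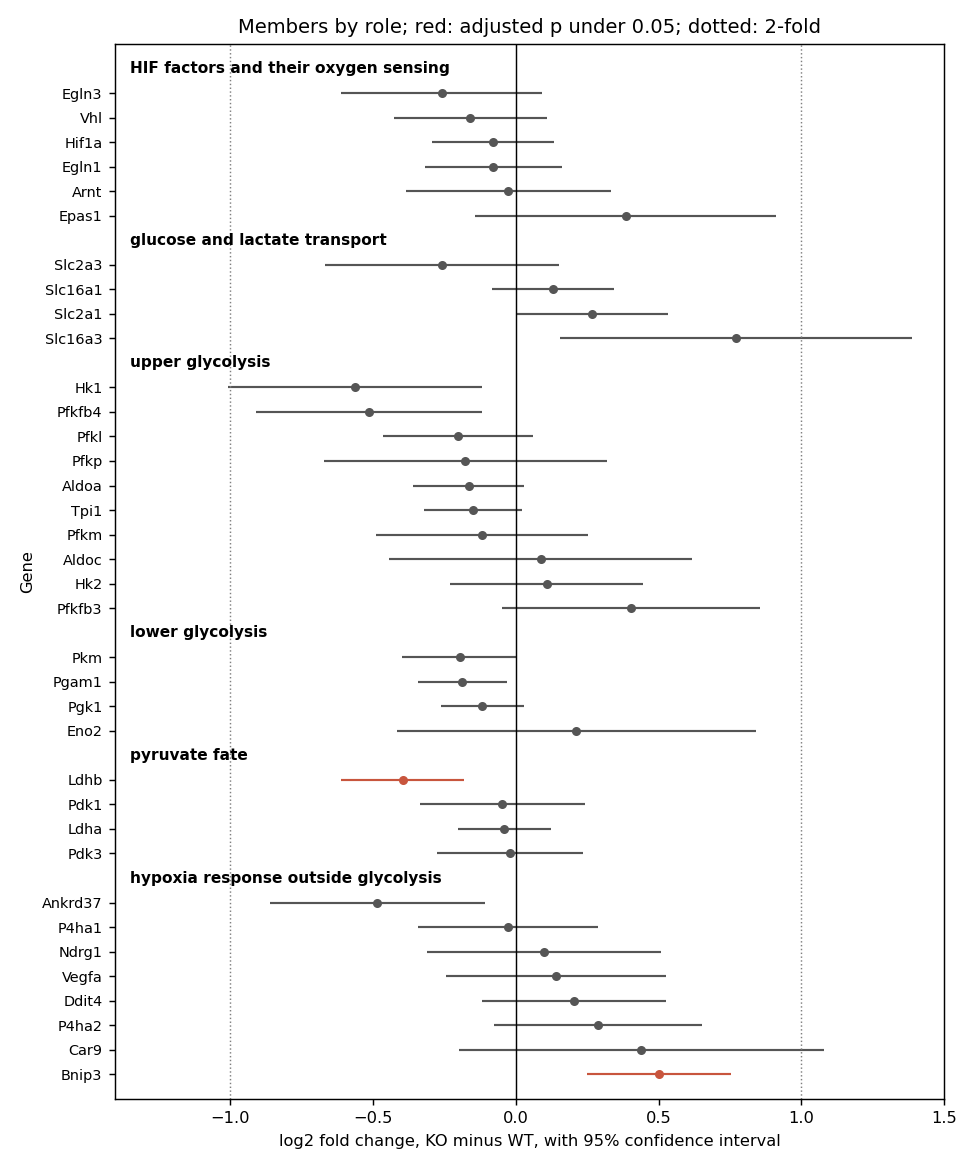
Log2 fold change (KO minus wild-type, horizontal axis) of the 36 tested genes by role, each read by its brightest tested probe set from 3 pools per group, with bars for the 95% confidence interval and dotted lines at a 2-fold change. Bnip3 (0.50) and Ldhb (−0.40), in red, passed the threshold, and most other intervals cross 0.

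The same pools differed in other respects that bear on every value below. The single Emx2 probe set did not separate the groups (1716 ± 409 in wild-type and 1634 ± 138 in KO pools, SD, n = 3 each), and the sources used here do not say where it lies relative to the deletion, so it does not check the labels. Xist, the RNA of the inactive X chromosome, read 34.6 ± 30.8 in wild-type and 9512 ± 326 in KO pools, and the Y-linked Eif2s3y, Kdm5d and Uty were lower in KO pools. The sex of the pooled fetuses and the genotype therefore cannot be told apart, which touches the X-linked members Pgk1 and Pdk3. Of 9 tested markers of the epithelium 2 rose (Krt19, log2 fold change 1.02, and Upk1b, 1.44) and 2 fell (Nr5a1, −1.22, and Krt8, −0.59). The sums of all 9 were 17118 to 18718 in wild-type and 15161 to 16916 in KO pools. Among those that did not pass, Lhx9 was bright in all pools (6156 ± 498 and 6262 ± 553). Wt1 was bright too (2620 ± 136 and 2002 ± 308), with all KO pools below all wild-type pools (adjusted p = 0.0715). Gata4 had all KO pools above (276 ± 60.7 and 418 ± 10.8, adjusted p = 0.0501). Of 13 mesenchymal markers 8 rose and 0 fell, their summed scaled intensity being 14575 to 16363 in wild-type and 21471 to 22528 in KO pools. Of 12 tested endothelial markers (of 14; Pecam1 and Tie1 were under the limit for dim probe sets) 4 rose and 0 fell, with sums of 1131 to 1517 and 1794 to 2079. Among these 4, Emcn had a wild-type mean of 22.0, under the dim limit of 26.4, and was tested only through its higher KO level (60.1). Of 5 tested macrophage markers 1 rose (sums of 276 to 408 and 417 to 605), of 5 germ cell markers 2 fell (518 to 621 and 332 to 412), of 2 tested nephric duct markers 1 fell (127 to 157 and 38.4 to 82.3), and of 4 neural ones 0 passed (158 to 196 and 171 to 444). Of 7 tested erythroid genes 0 passed, and their sums overlapped (36062 to 37981 and 36889 to 38326). In these bulk samples, fewer cells of a type and less RNA per cell cannot be told apart, and the part of such cells in the results below was not tested.

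Ldhb encodes the heart-type subunit of lactate dehydrogenase, whose tetramers favour turning lactate to pyruvate, and was the only member that fell. Its brightest probe set read 8094, 8795 and 6587 (wild-type) against 5776, 6313 and 5654 (KO). All KO pools lay below all wild-type pools, wild-type replicate 3 being nearest to them. Wild-type pools averaged 7825 ± 1128 and KO pools 5914 ± 351 (SD over 3 pools), a log2 fold change of −0.40 (SE 0.10, 95% confidence interval −0.61 to −0.18, adjusted p = 0.0406). The other 3 Ldhb probe sets, which read the same transcripts and are no independent evidence, also passed and did not overlap between groups. Their log2 fold changes were −0.41 (SE 0.09, adjusted p = 0.0159), −0.43 (SE 0.10, adjusted p = 0.0286) and −0.39 (SE 0.10, adjusted p = 0.0493). The size and sign of the change were alike at the 4 probe sets, but the call at the brightest held in only 1 of the 6 fits with a pool left out, that without wild-type replicate 3. Without wild-type replicates 1 and 2 and KO replicates 1, 2 and 3 in turn the adjusted p was 0.156, 0.134, 0.14, 0.0597 and 0.156, with log2 fold changes between −0.44 and −0.31. The call also ended with scaling to a common median (−0.42, adjusted p = 0.0518), with values as deposited (−0.30, adjusted p = 0.672), with no filter on dim probe sets (adjusted p = 0.323) and with no intensity trend in the fit (adjusted p = 0.252).

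Ldha, the muscle-type subunit that favours lactate formation, did not pass. It read 5697, 6354 and 5679 (wild-type) against 5829, 5720 and 5674 (KO), and the groups overlapped. Its log2 fold change of −0.04 (SE 0.08, adjusted p = 0.848) had a 95% confidence interval of −0.20 to 0.12, and turned to a positive sign under quantile normalization and without rescaling. Whether the Ldhb and Ldha changes differ from each other was not tested.

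The upstream sequences of the pair of lactate dehydrogenase genes are shown because the oxygen response is read at such motifs. They are the 250 bases before the RefSeq start sites of build GRCm38.p6, 5′ to 3′ on the gene's strand, with capitals marking the letters ACGTG or GCGTG, the cores of hypoxia response elements, on either strand (ACGTG reads CACGT and GCGTG reads CACGC on the opposite strand, and CACGTG holds ACGTG on both and counts as 2 matches). For Ldha the more upstream of its 2 start sites is given.
Ldhb promoter, chr6:142507958-142508207, - strand: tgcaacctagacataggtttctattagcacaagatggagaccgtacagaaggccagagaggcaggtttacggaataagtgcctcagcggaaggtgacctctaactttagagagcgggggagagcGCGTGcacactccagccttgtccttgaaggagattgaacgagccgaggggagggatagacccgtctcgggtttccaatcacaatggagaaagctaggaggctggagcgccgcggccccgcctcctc
Ldha promoter, chr7:46845554-46845803, + strand: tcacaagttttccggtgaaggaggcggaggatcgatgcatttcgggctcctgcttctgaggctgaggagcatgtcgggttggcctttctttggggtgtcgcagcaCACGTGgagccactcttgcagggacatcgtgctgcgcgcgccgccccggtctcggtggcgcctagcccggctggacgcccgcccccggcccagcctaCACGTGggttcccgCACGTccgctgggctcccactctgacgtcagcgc
The Ldhb window held 1 match, a GCGTG whose first base lies 126 bases before the start site, and 0 of ACGTG. The Ldha window held 5 matches of ACGTG, lying from 145 to 34 bases before its start site, and the gene's level did not pass the test. The window of the other Ldha start site, chr7:46846832-46847081, held 0 of ACGTG and 1 of GCGTG, the same counts as that of Ldhb. Windows were found for 33 of the 36 tested members. ACGTG stood in 25 of their 45 windows (55.6%) and in 21.4% of the 12774 windows of all tested genes found in the table. GCGTG stood in 24 (53.3%) and in 44.3% of those. Many members are known as HIF targets and were listed for it, so these shares describe the list and are no result of the comparison, and a match is not evidence of binding.

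The kinases that hold pyruvate out of the mitochondrion did not pass. Pdk1 read 1970, 1837 and 2306 (wild-type) against 2348, 1628 and 1982 (KO), with overlap (log2 fold change −0.05, SE 0.13, 95% confidence interval −0.33 to 0.24, adjusted p = 0.903). Its dimmer probe sets gave −0.23, −0.07 and 0.54, and none passed. The X-linked Pdk3 gave 1018 ± 97.5 and 1004 ± 90.4 (−0.02, SE 0.12, adjusted p = 0.957), with overlap.

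Of the 4 tested members of lower glycolysis 0 rose, 0 fell and 4 did not pass. Pgam1, the phosphoglycerate mutase, read 5184, 5238 and 5049 (wild-type) against 4637, 4455 and 4509 (KO). The groups were tight and did not overlap, and the difference was small (log2 fold change −0.19, SE 0.07, 95% confidence interval −0.34 to −0.03, adjusted p = 0.197). Pkm, a pyruvate kinase gene, gave 3692, 3613 and 3040 against 2908, 2991 and 3102. Wild-type replicate 3 lay within the KO range of Pkm (−0.20, SE 0.09, adjusted p = 0.306). Pgk1, the X-linked phosphoglycerate kinase that makes the first ATP of the pathway, gave 9925, 9628 and 9193 against 8988, 8532 and 9003. Its groups did not overlap, but the log2 fold change was −0.12 (SE 0.07, 95% confidence interval −0.26 to 0.03, adjusted p = 0.416), and the other 2 Pgk1 probe sets, at −0.09 and −0.11, overlapped. Eno2, the neuronal enolase, was dim in all pools (31.6 ± 4.51 and 36.4 ± 2.2, adjusted p = 0.778).

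Gapdh, which oxidises glyceraldehyde phosphate, was represented only by 3 of the array's control probe sets, which were not tested. The one at the 3′ end read 12356, 12750 and 10344 (wild-type) against 10774, 11630 and 11340 (KO), so the groups overlapped. The middle and 5′ probe sets overlapped too, with means of 8247 ± 893 and 7715 ± 164 and of 3078 ± 241 and 2948 ± 160. The ratio of the 3′ to the 5′ signal, which rises with RNA breakdown and with short copies in amplification, was 3.84 ± 0.387 in wild-type and 3.82 ± 0.288 in KO pools (two-sided exact permutation p = 1, where 3 against 3 pools cannot go below 0.1). For Actb it was 16.96 ± 2.31 and 18.1 ± 3 (exact permutation p = 0.8). Both ratios overlapped between the groups. Gpi1, Eno1 and Bnip3l had no probe set of their symbol alone. Of the 40 genes, 3 (Hk1, Gapdh and Bnip3l) were also named by 7 probe sets together with other genes, which were not used.

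**Figure D2:**
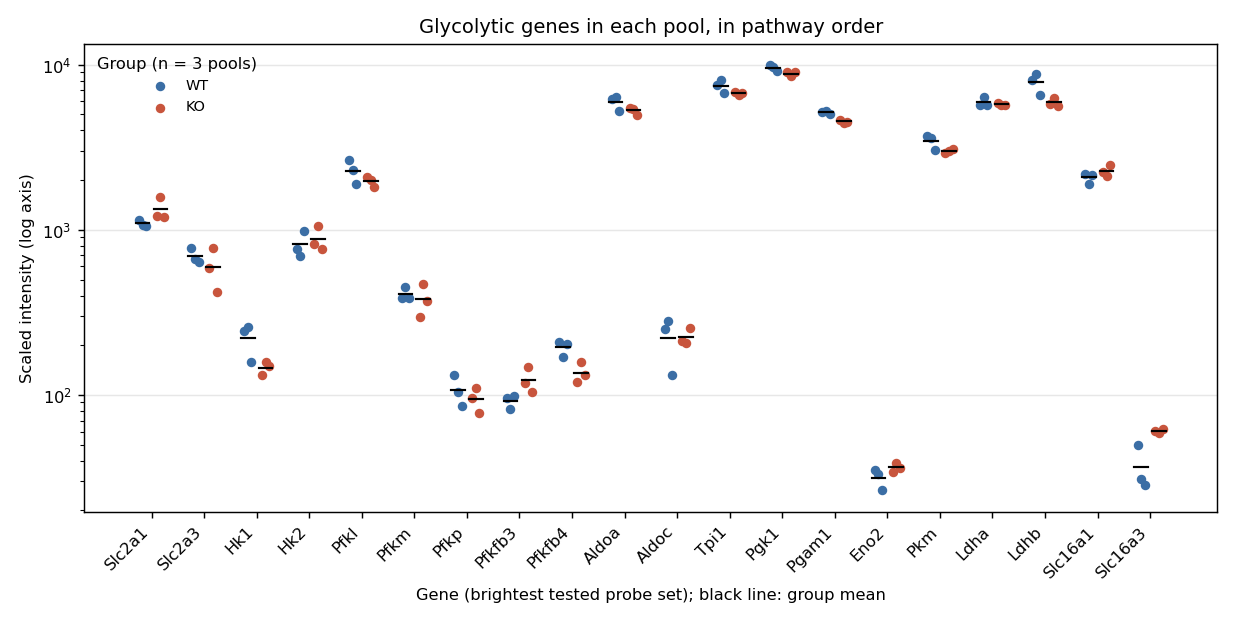
Scaled intensity (log axis) of glycolytic genes and their carriers in each of 3 wild-type (blue) and 3 KO (red) pools, in pathway order from glucose entry to lactate exit, each gene by its brightest tested probe set, with black lines at group means. The wild-type points of Ldhb (6587 to 8795) lie above the KO points (5654 to 6313), whereas those of Ldha overlap.

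In upper glycolysis 0 of 10 tested members passed. Hk1, the constitutive hexokinase, had the lowest fold change of the list, and read 244, 259 and 158 (wild-type) against 132, 157 and 149 (KO). Wild-type replicate 3 was separated from the highest KO pool by less than the spread within either group (log2 fold change −0.56, SE 0.20, adjusted p = 0.164). Without wild-type replicate 3 the log2 fold change was −0.78 and passed (adjusted p = 0.0258), the one call of a member at its brightest probe set gained by leaving out a pool. Hk2, the inducible hexokinase, gave 816 ± 152 and 878 ± 154 (0.11, SE 0.16, adjusted p = 0.791).

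The 2 isozymes that set the level of fructose 2,6-bisphosphate, the activator of phosphofructokinase, had fold changes of opposite sign, and neither passed. Pfkfb4 read 208, 170.0 and 204 (wild-type) against 119, 159 and 132 (KO; log2 fold change −0.51, SE 0.18, adjusted p = 0.152). Pfkfb3 read 95.8, 81.8 and 99.0 against 118, 148 and 103 (0.40, SE 0.21, adjusted p = 0.35). Neither pair of groups overlapped, and both 95% confidence intervals were wide, −0.91 to −0.12 for Pfkfb4 and −0.05 to 0.85 for Pfkfb3.

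Of the 3 subunit genes of phosphofructokinase itself 0 passed. Pfkl, the liver-type subunit, gave 2281 ± 383 and 1968 ± 139 (log2 fold change −0.20, SE 0.12, adjusted p = 0.441), and its dimmer probe sets gave −0.20 and 0.16. Pfkm, the muscle type, gave 407 ± 36.6 and 380 ± 87.7 (adjusted p = 0.793), and Pfkp, the platelet type, 107 ± 23.4 and 94.5 ± 16.4 (adjusted p = 0.766). The groups overlapped at the brightest probe set of all 3 genes. A second, dim Pfkp probe set read 34.8 ± 4.13 and 22.3 ± 4.6, the KO mean being under the dim limit of 26.4, and did not pass either (adjusted p = 0.324).

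Aldolase and triose phosphate isomerase were bright and measured precisely. Aldoa, the main aldolase of embryonic tissues, gave 5938 ± 636 and 5283 ± 266 (log2 fold change −0.16, SE 0.09, 95% confidence interval −0.36 to 0.03, adjusted p = 0.385). Its 4 other probe sets ran from −0.21 to −0.13, all with the same sign. Tpi1 gave 7448 ± 676 and 6698 ± 140 (−0.15, SE 0.08, 95% confidence interval −0.32 to 0.02, adjusted p = 0.369), and its other 2 probe sets gave −0.14 and −0.15. Aldoc, the brain-type aldolase, gave 220 ± 77.1 and 224 ± 26.6 (0.09, SE 0.24, adjusted p = 0.9), and its sign turned when wild-type replicate 3 (−0.24) or KO replicate 3 (−0.0083) was left out.

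Across the 18 tested enzymes of glycolysis and pyruvate use, 14 log2 fold changes were below 0 and 4 above, with a median of −0.13. Over all tested genes 52.7% were below 0. Of the 15 members with a mean level over 1000, 12 were below 0, with a median of −0.08, while among the 3056 tested genes as bright 1810 were below 0, with a median of −0.03. Over all tested probe sets of the array the median was 0.0052 in the main fit and −0.0076 under quantile normalization. It was −0.0235 with scaling to a common median and 0.0979 with the values as deposited. The median of the enzymes under those other settings was not computed. The part of the scaling in these small differences was not tested. Wild-type replicate 3 gave the lowest of the 3 wild-type values in 13 of the 18 enzymes and in 23 of the 36 members, replicate 1 in 1 and 2 of them. The share over all tested genes was not computed, so these counts cannot be called particular to the members. Wild-type replicate 3 also had the highest wild-type signal of Slc4a1, the anion exchanger of red cells, at 2286 against 573 and 511. The KO pools lay at 1213 to 1449 for Slc4a1. Among the other tested erythroid genes wild-type replicate 3 was highest of the wild-type pools in Alas2, Klf1, Gata1 and Hba-x. It was in the middle for Hbb-bh1 (13619 against 14450 and 13020) and lowest for Hbb-y (12794 against 14960 and 14957). The part of red cells in these values was not tested.

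Of the 4 carriers of glucose and lactate 0 passed. Slc2a1, the basal glucose carrier of most embryonic cells, read 1154, 1072 and 1059 (wild-type) against 1215, 1580 and 1190 (KO). The groups did not overlap, and KO replicate 2 stood above the other KO replicates (log2 fold change 0.27, SE 0.12, adjusted p = 0.288). Its other 2 probe sets overlapped between groups, at 0.30 and 0.05. Slc2a3, a carrier of high affinity typical of neurons and trophoblast, read 779, 670 and 634 against 590, 781 and 421, with overlap (−0.26, SE 0.19, adjusted p = 0.546). Slc16a3, the lactate exporter of highly glycolytic cells, was dim and read 49.6, 31.1 and 28.6 (wild-type) against 60.3, 58.8 and 61.9 (KO). All KO pools lay above all wild-type pools, and the log2 fold change of 0.77 was the highest of the list (SE 0.28, 95% confidence interval 0.15 to 1.39), but it did not pass (adjusted p = 0.17). Slc16a1, the carrier of broad expression, gave 2075 ± 157 and 2272 ± 175, also with overlap (0.13, SE 0.10, adjusted p = 0.557).

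Among the HIF subunits and the genes that sense oxygen for them, 0 of 6 passed, and at the brightest probe sets 0 of 6 had groups that did not overlap. Hif1a, the subunit induced in most cells, is regulated mainly as a protein, which an array does not measure. It read 3813, 3373 and 4151 (wild-type) against 3711, 3226 and 3780 (KO; log2 fold change −0.08, SE 0.10, 95% confidence interval −0.29 to 0.13, adjusted p = 0.752). A second Hif1a probe set read 1438, 1158 and 1319 against 1084, 935 and 970 without overlap (−0.39, SE 0.12, adjusted p = 0.0842), and neither passed. Epas1, the HIF-2 alpha subunit typical of endothelium, read 196, 303 and 157 against 239, 369 and 235, with wide overlap (0.39, SE 0.24, adjusted p = 0.467).

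The partner and the regulators of these subunits were read pool by pool as well. Arnt, the shared partner, read 1055, 674 and 653 (wild-type) against 787, 751 and 746 (KO), wild-type replicate 1 standing above all others (log2 fold change −0.03, SE 0.17, adjusted p = 0.96). Vhl, the substrate receptor of the ligase that removes hydroxylated HIF, read 740, 666 and 727 against 720, 605 and 592 (−0.16, SE 0.12, adjusted p = 0.579). Egln1, the main oxygen-sensing hydroxylase, read 1324, 1310 and 1348 against 1407, 1280 and 1103 (−0.08, SE 0.11, adjusted p = 0.788). These groups all overlapped. Egln3, a hydroxylase that is itself induced by HIF, read 274, 253 and 293 against 233, 194 and 262 (−0.26, SE 0.16, adjusted p = 0.465), also with overlap.

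Bnip3 was the only member that rose. It encodes a mitochondrial protein of the BCL2 family that promotes removal of mitochondria and is a well-known target of HIF. Its single probe set read 1037, 1327 and 1260 (wild-type) against 1828, 1567 and 1715 (KO). All KO pools lay above all wild-type pools, with averages of 1208 ± 152 and 1703 ± 131 (SD over 3 pools; log2 fold change 0.50, SE 0.12, 95% confidence interval 0.25 to 0.75, adjusted p = 0.0261). Leaving out wild-type replicate 1 ended the call (0.39, adjusted p = 0.113), as did leaving out KO replicate 1 (0.45, adjusted p = 0.118) or KO replicate 3 (0.49, adjusted p = 0.0949), and it held without each of the other 3 pools. It also ended with values as deposited (0.59, adjusted p = 0.183), with no filter on dim probe sets (adjusted p = 0.199) and with no intensity trend in the fit (adjusted p = 0.148). Its upstream window is shown because it is the one promoter of a member that rose.
Bnip3 promoter, chr7:138909507-138909756, - strand: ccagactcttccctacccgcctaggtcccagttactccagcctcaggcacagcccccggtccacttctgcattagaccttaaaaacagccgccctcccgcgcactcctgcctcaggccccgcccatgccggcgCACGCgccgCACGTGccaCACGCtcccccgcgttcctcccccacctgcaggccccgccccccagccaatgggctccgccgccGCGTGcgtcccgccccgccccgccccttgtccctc
The window, with capitals as above, held 5 matches: CACGTG, which counts as 2 of ACGTG and begins 108 bases before the start site, and 3 of GCGTG, at 117, 99 and 35 bases before it.

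The other tested genes of the hypoxia response outside glycolysis, 7 in number, did not pass. Ankrd37, a small ankyrin repeat gene induced by HIF in many cells, read 253, 230 and 191 (wild-type) against 167.6, 143 and 169.5 (KO). Its groups did not overlap, with KO lower, the reverse of the direction of Bnip3 (log2 fold change −0.48, SE 0.17, adjusted p = 0.156). P4ha2, a collagen prolyl hydroxylase subunit, read 191, 187 and 199 against 197, 241 and 274, with overlap at 1 KO pool (0.29, SE 0.17, adjusted p = 0.422), and its isozyme P4ha1 gave 560 ± 44.6 and 554 ± 92 (−0.03, SE 0.14). Ddit4, an inhibitor of mTOR, gave 574 ± 108 and 656 ± 65.7 (0.20, SE 0.15, adjusted p = 0.543), and Ndrg1, a differentiation and stress gene, 171 ± 11.7 and 185 ± 40.3 (0.10, SE 0.19). Car9, the carbonic anhydrase whose level is a common marker of hypoxic tissue, was dim throughout at 32.6 ± 7.6 and 43.6 ± 5.39 (0.44, SE 0.30, adjusted p = 0.498).

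For Vegfa, the growth factor of endothelium, the 2 tested probe sets gave log2 fold changes of opposite sign. The brightest over all pools read 213, 211 and 156 (wild-type) against 216, 191 and 228 (KO), with overlap (log2 fold change 0.14, SE 0.18, adjusted p = 0.753). The other read 196, 184 and 206 against 147, 88.5 and 119, all KO pools below all wild-type pools, and did not pass (−0.76, SE 0.20, 95% confidence interval −1.20 to −0.31, adjusted p = 0.0556). The sources used here do not say where on the transcripts these probe sets lie. No direction can be given for Vegfa as a gene.

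**Figure D3:**
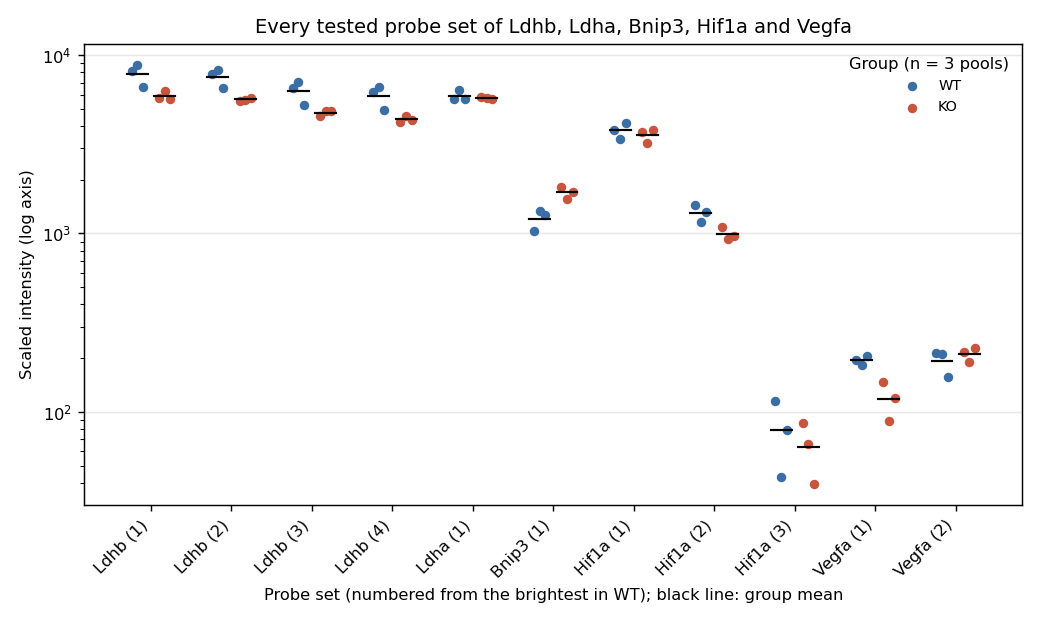
Scaled intensity (log axis) in each pool for every tested probe set of Ldhb, Ldha, Bnip3, Hif1a and Vegfa, numbered within a gene from the brightest in wild-type, with 3 wild-type (blue) and 3 KO (red) pools and black lines at group means. All 4 Ldhb probe sets are lower and Bnip3 is higher in KO pools without overlap, while 1 of the 2 Vegfa probe sets overlaps between groups and the other is lower in KO pools.

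Related genes of the same pathways, 92 symbols by list and 71 tested, were read the same way. The untested symbols Tceb1, Tceb2, Ak3l1 and Ero1l are older names of the tested Eloc, Elob, Ak4 and Ero1a. Pgm1 and Gys1 stand in both the glycogen and the hypoxia response lists. Of the 71, 4 rose, 2 fell and 65 did not pass (8.45%, against 5.41% of all tested genes), with a median log2 fold change of −0.06. These lists were chosen with earlier results of these data known, so their share of calls is not that of an independent list. Of 13 tested genes of the pentose phosphate and glycogen branches, 9 further genes of glycolysis and gluconeogenesis and 6 further carriers, 0 passed.

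Hif3a, a HIF alpha subunit whose short forms are known to hold back the others, rose. Its brighter probe set read 318, 374 and 299 (wild-type) against 641, 725 and 652 (KO). The groups lay far apart (330 ± 39.0 and 673 ± 45.6, log2 fold change 1.03, SE 0.14, adjusted p = 0.00073), and the call held in all 6 fits with a pool left out. The dimmer one went from 81.1 ± 10.1 to 151 ± 4.62 (0.91, SE 0.19, adjusted p = 0.0159). Hif3a was the only one of 9 tested further HIF pathway components that passed (11.1%, against 5.41% of all tested genes).

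Adm, the vasodilator peptide adrenomedullin and a widely used HIF target, fell. At its brightest probe set it read 457, 434 and 235 (wild-type) against 84.9, 69.2 and 80.9 (KO). That probe set is of the class dropped in the fit without cross-hybridising probe sets. Even wild-type replicate 3, the lowest of its group, lay well above the KO pools (375 ± 122 and 78.3 ± 8.17, log2 fold change −2.21, SE 0.24, adjusted p = 0.000183). A dimmer Adm probe set had a KO mean of 21.2, under the dim limit of 26.4, and so was tested only because its wild-type level was higher (58.3); it is not counted as support. No upstream window is shown for Lox, whose change, given below, was larger than that of Hif3a. The upstream windows of Hif3a and Adm, given because these were among the strongest changes in the related lists, hold 0 matches of ACGTG and 2 of GCGTG each.
Hif3a promoter, chr7:17062428-17062677, - strand: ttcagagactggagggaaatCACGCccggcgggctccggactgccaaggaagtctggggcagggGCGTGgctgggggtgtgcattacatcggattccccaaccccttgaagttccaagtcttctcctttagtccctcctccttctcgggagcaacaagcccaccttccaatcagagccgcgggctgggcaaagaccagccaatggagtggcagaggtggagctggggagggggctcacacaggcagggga
Adm promoter, chr7:110627407-110627656, + strand: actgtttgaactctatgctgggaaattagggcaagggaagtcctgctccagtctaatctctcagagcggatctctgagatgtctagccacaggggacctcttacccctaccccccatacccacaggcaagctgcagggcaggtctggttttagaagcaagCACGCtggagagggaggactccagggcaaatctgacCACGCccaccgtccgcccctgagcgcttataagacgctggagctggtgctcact
In the Hif3a window the matches begin 230 and 186 bases before the start site, and in the Adm window 90 and 54 bases before it.

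Of 23 tested further hypoxia response genes 2 rose (Lox and Plod2), 2 fell (Adm and Kdm3a) and 19 did not pass. This is 17.4%, against 5.41% of all tested genes, in a list chosen with earlier results of these data known. Kdm3a, a histone demethylase, read 2808, 3184 and 2753 (wild-type) against 2259, 1802 and 2104 (KO), without overlap (log2 fold change −0.51, SE 0.11, adjusted p = 0.0137). Leaving out wild-type replicate 2 or KO replicate 2 ended this call (adjusted p = 0.054 and 0.066). The Kdm3a call also ended with values as deposited, with no filter on dim probe sets and with no intensity trend. Lox, which crosslinks collagen, rose from 71.4 ± 5.45 to 198 ± 25.0 (1.46, SE 0.19, adjusted p = 0.00066). Plod2, which hydroxylates collagen lysines, read 1409, 1100 and 1643 against 2373, 2239 and 1839 at its brightest probe set (0.65, SE 0.14, adjusted p = 0.0206), and 868 ± 116 and 1482 ± 100 at the other (0.78, SE 0.12, adjusted p = 0.00231). At the brightest, the Plod2 call was lost without wild-type replicate 1 (0.67, adjusted p = 0.0674), wild-type replicate 2 (0.49, adjusted p = 0.0591), KO replicate 1 (0.57, adjusted p = 0.0939) and KO replicate 2 (0.61, adjusted p = 0.0797). Lox and Plod2 act on collagen, and the mesenchymal markers given above, with sums of 14575 to 16363 against 21471 to 22528, were higher in the same pools. Their part in these rises was not tested.

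At the entry of pyruvate to the mitochondrion, 1 of 13 tested genes rose and 0 fell (7.69%, against 5.41% of all tested genes). Pdp2, a phosphatase that switches pyruvate dehydrogenase on, read 489, 520 and 453 (wild-type) against 721, 727 and 626 (KO; log2 fold change 0.50, SE 0.12, adjusted p = 0.0369). The groups did not overlap, but the call held in only 1 of the 6 fits with a pool left out. That was the fit without wild-type replicate 2, the adjusted p elsewhere reaching 0.146. The Pdp2 call was lost with the replicate number as a block (adjusted p = 0.0515) and with scaling to a common median. It was also lost with values as deposited, with no filter on dim probe sets and with no intensity trend. Of the 12 others, 10 log2 fold changes lay below 0, among them those of the enzyme subunits Pdhb (−0.28, adjusted p = 0.147) and Dld (−0.38, adjusted p = 0.149), and in 6 of these all KO pools lay below all wild-type pools. One of the 6, Pdk2, had a KO mean of 21.6, under the dim limit of 26.4, and was tested only through its higher wild-type level (38.5). Groups with all KO pools below were found in 12.1% of all tested genes.

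**Figure D4:**
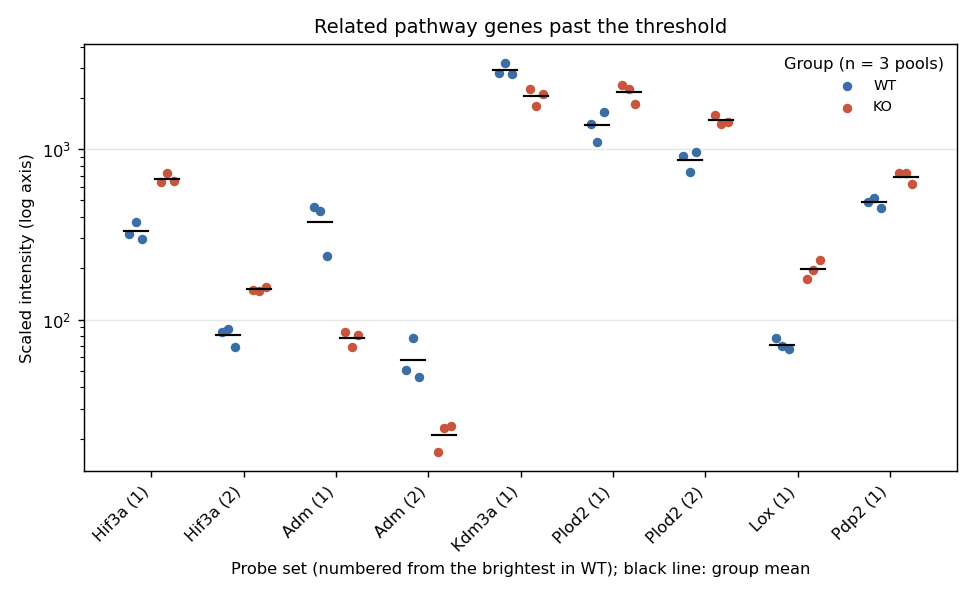
Scaled intensity (log axis) in each of 3 wild-type (blue) and 3 KO (red) pools for the tested probe sets of the 6 related genes that passed at their brightest probe set, with black lines at group means. Hif3a, Plod2, Lox and Pdp2 are higher and Adm and Kdm3a lower in the KO pools, without overlap at any probe set shown. The dimmer Adm probe set, with a KO mean of 21.2 under the dim limit of 26.4, is not counted as support.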

How the data were processed

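RNA of 3 wild-type and 3 Emx2 KO pools (15 ng of total RNA each) was amplified over 2 rounds and biotin-labelled, per the labels' protocols, and hybridised to 1-channel arrays of 45101 probe sets. The values are linear intensities as the authors deposited them. Per the submitters' processing notes GCOS 1.2 was used; its algorithm, scaling and filters are not given in the sources used here. Their 2% trimmed means ran from 254 to 373, so each was scaled to their geometric mean (309). Values under the 20th percentile (7.99) were set to it, log2 was taken, and the 64 control probe sets and the 40% dimmest (mean under 26.4) were left out, leaving 27022. Folds near the floor are compressed. The number of arrays limits the precision: the median SE of a log2 fold change was 0.188.

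Genes were named from the platform annotation (34958 probe sets with 1 symbol, 932 with several, 9211 with none). The groups were tested with limma 3.58.1 (R 4.3.3, moderated with an intensity trend, two-sided). P-values were adjusted by Benjamini-Hochberg across the 27022 probe sets, with a threshold of 0.05. Of 27022 probe sets, 1264 (4.68%) passed. The test was run on simulated data, where 58 of 100 2-fold and 93 of 100 4-fold changes were recovered. Of the 160 probe sets called there, 9 were false calls. The simulated noise was drawn independently for each probe set, and fewer probe sets were changed than were called in the data. These recoveries and false calls therefore need not hold for the data. The members and gene lists were chosen with earlier results of these data known. Every member was described; in each role, those with a called probe set, filled to 3 by p, and all HIF factors were given pool by pool, and called genes of related lists were named. Some further members are given pool by pool for their probe sets or isozymes. Replicate numbers were not taken as pairs. Promoter windows are from RefSeq (GRCm38.p6), and protein identities of isozymes were not computed, since no protein sequences were used here.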

Additional observations from a re-analysis of the deposited data

How the results depend on the processing

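The count of called members was 2 in the main fit. The X-linked Pgk1 and Pdk3 were not called, so leaving them out could not change the count and is no check on sex. The count was the same under quantile normalization and with the floor raised to the 40th percentile or replaced by a pseudocount. It was also 2 with a filter of the lowest 60%, the mean of all probe sets, an adjusted p threshold of 0.1, and without cross-hybridising probe sets. It was 1 with scaling to a common median (Bnip3 higher, 0 lower; Ldhb at adjusted p = 0.0518), and 0, with 0 higher and 0 lower, for values as deposited, with no filter on dim probe sets, and with no intensity trend. With 1 pool left out it ran from 0 to 3, with 0 to 1 higher and 0 to 2 lower. The count over all probe sets, 1264, was 151 with no filter, 541 with no trend, 1939 at the threshold of 0.1 and 721 to 1687 with 1 pool left out. The 6 related genes called became 1 with no filter (Lox), 3 with no trend (Adm, Hif3a and Lox), and 3 to 5 with 1 pool left out. The direction of the 8 called genes held in every fit run.

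Signs of members near 0 turned. For values as deposited the log2 fold change was 0.053 for Ldha, 0.046 for Pdk1, 0.074 for Pdk3, 0.014 for Egln1, 0.013 for Hif1a, 0.068 for Arnt and 0.066 for P4ha1. Under quantile normalization Ldha gave 0.031. The mean of all probe sets gave 0.048 for Pdk1, −0.31 for Vegfa and 0.13 for Arnt. With 1 pool left out, Hk2 ran from −0.029 to 0.25, Pfkm from −0.29 to 0.045, Aldoc from −0.24 to 0.29, Ldha from −0.068 to 0.013, Pdk1 from −0.18 to 0.089, Pdk3 from −0.10 to 0.045, Vegfa from −0.0056 to 0.22, Egln1 from −0.16 to 0.016, Arnt from −0.15 to 0.20, Ndrg1 from −0.061 to 0.25 and P4ha1 from −0.14 to 0.11.

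With the replicate number as a block, 2 members, 6 related genes and 1160 probe sets passed. These 6 were not the 6 of the main fit, since Pdp2 was lost and Tfrc, lower in KO pools, was gained. The same exchange occurred with scaling to a common median. In the main fit Tfrc, one of the further hypoxia response genes, did not pass (log2 fold change −0.54, adjusted p = 0.0585). Tfrc was called in addition to the main 6 under the raised floor, the filter of the lowest 60% and the threshold of 0.1. Deviations of same-numbered pools correlated at −0.07, 0.04 and −0.05, so the numbers were not taken to pair the pools.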
